A study of Mus musculus with 50 samples.

Results

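Cxcl9 and Cxcl10 are chemokines whose transcription is switched on by interferons. They are 2 of 13509 genes named on 50 spotted arrays of mouse airway RNA. They were chosen by their behaviour in earlier results of these data, as genes thought to be higher after allergen and not after IL-13, and were found by their symbols in the platform annotation. The values that chose them, allergen against saline and IL-13 against saline, are therefore given as a description with no test. Each gene had 1 spot on each of the 2 array platforms, made for the transcripts NM_008599 (Cxcl9) and NM_021274 (Cxcl10).

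The study measured RNA from tracheal perfusate (25 arrays) and from whole lung (25 arrays) of mice, in 10 groups of 5 arrays. The labels give 1 round of RNA amplification for perfusate, where stated, and 0 for whole lung, so amplification goes with tissue. In each tissue 3 groups were labelled IL-13, the cytokine of allergic inflammation, and were Stat6+/-, Stat6-/-, or Epi+ on a Stat6-/- background. The other groups of each tissue were labelled OVA (ovalbumin, the allergen) or PBS (saline), with no genotype. Stat6 is the transcription factor through which IL-13 signals. Lines of the name Epi+ carry a transgene that puts Stat6 back into the airway epithelium alone, but the labels hold no more than the mark. They give neither its promoter, the age of the animals nor the form in which IL-13 was present. No group holds Stat6+/- or Stat6-/- animals without IL-13, and no label ties an array to an animal of its own. The p-values therefore measure spread between samples that may be only technical.

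Every value is a log2 ratio of the sample to a reference RNA, minus the median of its array. A ratio gives no level of a transcript on its own, so presence of a tissue's defining markers could not be read from it. The perfusate arrays used 5 reference preparations, each with 1 array of every group. The IL-13 lung arrays used reference pools 3 and 4, and the OVA and PBS lung arrays used pool 2 on the smaller platform. Levels are therefore compared within perfusate, within IL-13 lung, and within OVA and PBS lung, and not across them. IL-13 can be set against saline only in perfusate. The Stat6 probe did not separate the genotypes (means of -0.86 in Stat6+/- and -0.67 in Stat6-/- lung), and where it lies in the gene is not stated in the labels. The Il13 probe averaged 1.77 to 2.76 in the IL-13 perfusate groups, against 0.04 in PBS perfusate, and this is why the ratio is taken as sample over reference, a direction that is likely but not stated. In 5 Stat6-/- arrays (perfusate replicates 10, 11 and 12, whole lung replicates 1 and 2) Y-linked transcripts were low. Arrays of a group correlated at -0.07 to 0.59 over all probes.

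Cxcl9, Cxcl10 and Cxcl11 are ligands of the receptor Cxcr3, which is carried by activated T cells, among them Th1 cells, and by natural killer cells. Interferon-gamma induces all 3 ligands, and type I interferons and NF-kappaB contribute, for Cxcl10 above all. Macrophages, dendritic cells, epithelium and endothelium can make them. Allergic inflammation is usually described through another set of chemokines, such as the eotaxins Ccl11 and Ccl24 and the Ccr4 ligands Ccl17 and Ccl22, many of which IL-13 and Stat6 induce.

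The starts of both genes are shown because the motifs they hold are those of the 2 signals named above. The windows run from 250 bases before to 50 bases after the annotated start, read along each gene, from RefSeq on the build GRCm38.p6. Both lie on the minus strand, that of Cxcl9 at chr5:92328030-92328329 and that of Cxcl10 at chr5:92348840-92349139. Capitals mark matches to the core of the interferon-stimulated response element, GAAANNGAA, and to a kappaB site, GGGNNTTCC. A gamma-activated site, TTCNNNGAA, was searched too.
Cxcl9: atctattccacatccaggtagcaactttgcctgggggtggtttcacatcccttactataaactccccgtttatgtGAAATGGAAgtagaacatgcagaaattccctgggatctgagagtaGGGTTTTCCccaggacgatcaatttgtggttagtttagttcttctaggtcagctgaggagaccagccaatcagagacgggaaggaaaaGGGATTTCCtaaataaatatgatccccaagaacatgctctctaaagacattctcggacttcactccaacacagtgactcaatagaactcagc
Cxcl10: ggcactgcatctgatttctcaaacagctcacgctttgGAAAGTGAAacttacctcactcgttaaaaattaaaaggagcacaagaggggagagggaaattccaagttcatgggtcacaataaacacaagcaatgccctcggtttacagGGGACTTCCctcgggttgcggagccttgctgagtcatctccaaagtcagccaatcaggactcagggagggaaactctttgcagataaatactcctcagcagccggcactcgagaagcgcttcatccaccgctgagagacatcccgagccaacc
Each window held 1 match to the response element core, beginning at position -175 from the start in Cxcl9 (GAAATGGAA) and at -213 in Cxcl10 (GAAAGTGAA). Cxcl9 held 2 kappaB matches, GGGTTTTCC at -130 and GGGATTTCC at -42. Cxcl10 held 1, GGGACTTCC, at -103. No match overlapped another, and neither window held a match to the gamma-activated site. Over all 32851 windows of this length, counting both strands, 8.56% held the response element core, 5.82% the kappaB site and 8.3% the gamma-activated site. Each site was searched only in the form given above, so sites of another length or other letters were not counted. A match is a description of the letters and not a sign of binding.

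In whole lung, both chemokines lay far higher on the OVA arrays than on the PBS arrays. In such bulk samples more cells of a type and more RNA per cell cannot be told apart. Cxcl9 stood at 3.64, 4.21, 3.35, 4.29 and 3.55 on OVA replicates 1, 2, 4, 5 and 6, and at 0.90, 0.0017, 0.18, 1.01 and 0.08 on PBS replicates 1 to 5. The lowest OVA array lay 2.34 above the highest PBS array. The share of all probes with such a gap is not given here, and nothing is read from it. Cxcl10 stood at 1.60, 1.88, 1.10, 1.14 and 1.96 on the same OVA arrays and at -0.42, -0.33, 0.23, -0.19 and -0.25 on the PBS arrays. For Cxcl10 this gap was 0.87. The means were 3.81 ± 0.42 against 0.43 ± 0.48 for Cxcl9 and 1.54 ± 0.40 against -0.19 ± 0.25 for Cxcl10 (SD, n = 5).

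The fitted difference, OVA minus PBS, was 3.38 ± 0.30 (SE) for Cxcl9, a ratio of 10.4-fold, and 1.73 ± 0.25 for Cxcl10, a ratio of 3.32-fold. The 95% intervals ran from 2.71 to 4.04 and from 1.17 to 2.29. Of 17047 probes, 32 had a larger difference than Cxcl9 and 520 a larger one than Cxcl10. This contrast chose the genes, so nothing is read from those ranks. The order of the arrays within a group was not shared: OVA replicate 5, the highest for Cxcl9, was the second lowest for Cxcl10. Over all probes 299 of 17047 were called at an adjusted p under 0.05 (1.75%), 256 of them higher (1.5%). The count fell to 86 to 187 without any 1 of OVA replicates 1 and 2 or PBS replicates 2 to 5. Centring removed a difference of -0.17 between the groups' array medians, and as deposited the values gave 3.21 for Cxcl9 and 1.56 for Cxcl10.

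**Figure D1:**
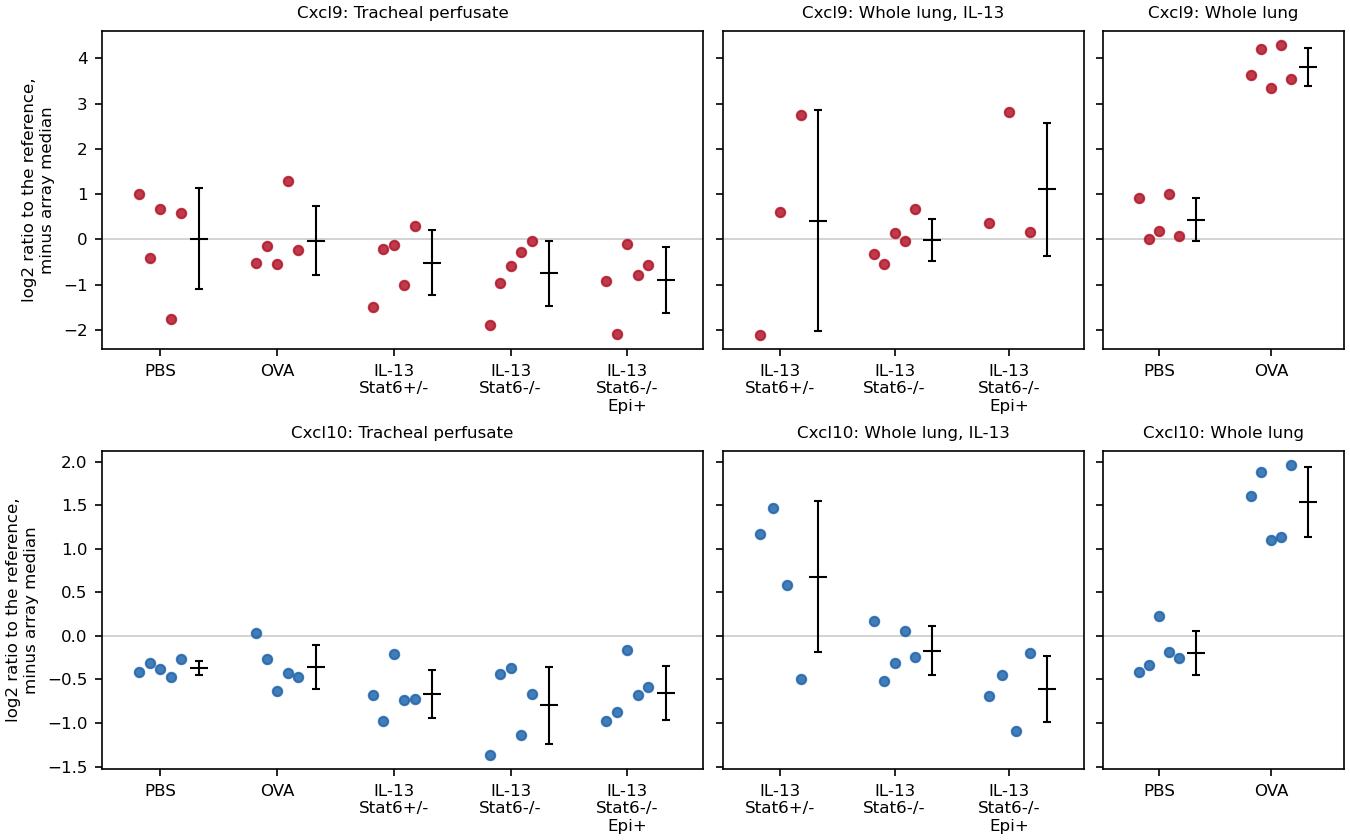
Centred log2 ratio to the reference (vertical axis) of Cxcl9 (upper row) and Cxcl10 (lower row) on every array with a value, by group; points are arrays and the black bars show the mean and SD. The OVA arrays of whole lung, at 3.35 to 4.29 and 1.10 to 1.96, lie above all PBS arrays of whole lung, while the perfusate groups overlap; panels of a row use different references and are not comparable in level.

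In perfusate, OVA and PBS arrays could not be separated by either chemokine. Cxcl9 stood at -0.53, -0.14, -0.54, 1.29 and -0.23 on OVA replicates 28 to 32 and at 1.01, -0.40, 0.67, -1.75 and 0.57 on PBS replicates 22 to 26. The PBS arrays alone spanned more than all OVA arrays. Cxcl10 stood at 0.04, -0.27, -0.63, -0.43 and -0.47 on the OVA arrays and at -0.42, -0.31, -0.38, -0.47 and -0.27 on the PBS arrays, so the PBS values lay inside the OVA range. The difference was -0.05 ± 0.48 for Cxcl9 (95% interval -1.05 to 0.96) and 0.02 ± 0.19 for Cxcl10 (-0.37 to 0.41). Within the 5 reference preparations the difference was above 0 in 2 and below 0 in 3 for either gene, from -1.54 to 1.69 for Cxcl9 and from -0.26 to 0.45 for Cxcl10. The intervals leave out the differences seen in whole lung. The OVA and PBS lung arrays, however, have another platform, another reference and RNA that was not amplified, and the difference between the tissues was not tested.

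The IL-13 perfusate groups had lower means than the PBS group for both chemokines, within overlapping values. Cxcl9 stood at -1.49, -0.22, -0.13, -1.02 and 0.30 on Stat6+/- replicates 4 to 8, at -1.89, -0.97, -0.59, -0.28 and -0.05 on Stat6-/- replicates 10 to 14, and at -0.92, -2.10, -0.11, -0.79 and -0.57 on Epi+ replicates 16 to 20. All of these groups overlapped PBS, whose replicate 25 was at -1.75. Cxcl10 stood at -0.68, -0.98, -0.21, -0.74 and -0.72 on the Stat6+/- arrays, at -1.37, -0.43, -0.37, -1.14 and -0.67 on the Stat6-/- arrays, and at -0.97, -0.88, -0.16, -0.68 and -0.58 on the Epi+ arrays. These groups also overlapped PBS, although many IL-13 arrays lay below its narrow range of -0.47 to -0.27.

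Against PBS, Cxcl9 differed by -0.53 in Stat6+/-, -0.77 in Stat6-/- and -0.92 in Epi+ perfusate (each ± 0.48, SE), and Cxcl10 by -0.30, -0.43 and -0.29 (each ± 0.19). For Cxcl10 in Stat6-/- perfusate the 95% interval, -0.82 to -0.04, lay below 0, and the other 5 intervals held 0. The highest upper bound was 0.48 for Cxcl9 and 0.10 for Cxcl10. Against the Stat6+/- arrays, the OVA arrays differed by 0.48 ± 0.48 for Cxcl9 and 0.31 ± 0.19 for Cxcl10. Without reference preparation 1.3, where 3 of 5 labels do not state whether the RNA was amplified, the Cxcl9 differences from PBS shrank to -0.04, -0.24 and -0.66, while those of Cxcl10 were -0.31, -0.30 and -0.22. In order of mean level, Cxcl9 ran from PBS (0.02 ± 1.12, SD) over OVA (-0.03 ± 0.76), Stat6+/- (-0.51 ± 0.72) and Stat6-/- (-0.75 ± 0.72) to Epi+ (-0.90 ± 0.74). Cxcl10 ran from OVA (-0.35 ± 0.25) over PBS (-0.37 ± 0.08), Epi+ (-0.66 ± 0.32) and Stat6+/- (-0.67 ± 0.28) to Stat6-/- (-0.80 ± 0.44). No neighbours in either order differed by more than the larger of their SDs.

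**Figure D2:**
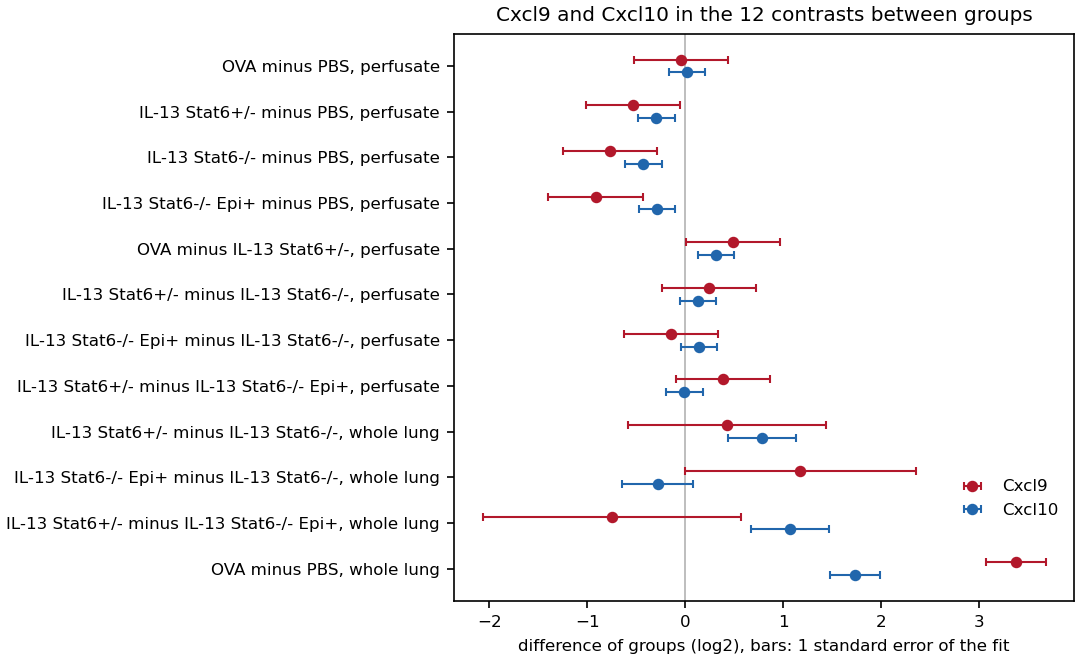
Difference between groups on the log2 scale (horizontal axis) of Cxcl9 and Cxcl10 in 12 contrasts; points are fitted differences and bars 1 standard error. OVA minus PBS in whole lung, at 3.38 and 1.73, stands apart from OVA minus PBS in perfusate, at -0.05 and 0.02.

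Both genes were tested for Stat6 genotype, a contrast their choice had not used. The IL-13 arrays compared here did enter the values that chose the genes, so these tests are not independent of that choice. Neither gene was called in any genotype contrast of perfusate (limma, adjusted p of 0.872 or higher). In perfusate 3.14% of all probes were called between Stat6+/- and Stat6-/- arrays, 0.0237% between Stat6+/- and Epi+ arrays, and 0.486% between Epi+ and Stat6-/- arrays. In this order Cxcl9 differed by 0.24, 0.38 and -0.14 (each ± 0.48, SE), and Cxcl10 by 0.13, -0.01 and 0.14 (each ± 0.19). The 95% intervals of Cxcl10 lay within -0.40 to 0.53.

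In whole lung of IL-13 animals the signals were incomplete. Cxcl9 had no value on 4 of 15 arrays and Cxcl10 on 2, whereas each had a value on all other arrays of the series. Why is not stated. Cxcl9 stood at -2.11, 0.61 and 2.75 on Stat6+/- replicates 1, 4 and 5, a spread wider than that of any other group. It stood at -0.32, -0.53, 0.14, -0.03 and 0.66 on Stat6-/- replicates 1, 2, 4, 5 and 6, and at 0.35, 2.81 and 0.16 on Epi+ replicates 1, 2 and 4. A single high array raised the mean of the Epi+ group, and the Stat6+/- arrays lay far apart in both directions. Cxcl10 stood at 1.17, 1.47, 0.58 and -0.50 on Stat6+/- replicates 1, 3, 5 and 6, at 0.17, -0.52, -0.31, 0.06 and -0.24 on the Stat6-/- arrays, and at -0.69, -0.45, -1.09 and -0.20 on Epi+ replicates 1 to 4. For Cxcl10, 3 of 4 Stat6+/- arrays lay above every Stat6-/- and Epi+ array, and the remaining one lay among them.

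Neither gene was called in these contrasts, in which the share of all probes called was 4.84% for Stat6+/- against Stat6-/- (3.23% higher), 3.42% for Stat6+/- against Epi+, and 0.0746% in the contrast of Epi+ with Stat6-/-. Cxcl10 differed by 0.78 ± 0.35 (SE) between Stat6+/- and Stat6-/- lung (limma, adjusted p = 0.252). Between Stat6+/- and Epi+ lung it differed by 1.06 ± 0.40 (limma, adjusted p = 0.174). The intervals of these differences ran from 0.01 to 1.55 and from 0.19 to 1.94, so both ends of each were positive. Within reference pool 3, whose Stat6+/- value came from replicate 6 alone, the first of these differences was -0.09, and within pool 4 it was 1.08. Without Stat6+/- replicate 6 the second was 1.67 and passed (adjusted p = 0.0455), and over its alternatives the adjusted p ran from 0.0455 to 0.574. Between Epi+ and Stat6-/- lung, Cxcl10 differed by -0.28 ± 0.36. Cxcl9 differed by 0.42 ± 1.01 for Stat6+/- against Stat6-/-, by -0.75 ± 1.32 for Stat6+/- against Epi+ and by 1.18 ± 1.18 between Epi+ and Stat6-/- (adjusted p of 0.803 or higher). The interval of the first ran from -1.87 to 2.72, so a difference of several-fold either way could not be seen.

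The difference between perfusate and whole lung in the Stat6+/- against Stat6-/- contrast was an interaction term on the larger platform, where 4.31% of probes were called. It was -0.65 ± 0.36 for Cxcl10 (limma, adjusted p = 0.374) and -0.18 ± 1.01 for Cxcl9 (adjusted p = 0.95). Neither was called. Without whole lung Stat6+/- replicate 6 the Cxcl10 term was -1.11 and passed (adjusted p = 0.0495). By the labels perfusate RNA was amplified, where stated, and lung RNA was not, so in this term amplification and tissue cannot be told apart.

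The third ligand of the receptor, Cxcl11, followed the same pattern in OVA against PBS lung, but not in the other comparisons. RefSeq lists Cxcl11 as a transcribed pseudogene on this assembly, which represents the strain C57BL/6J. Its OVA lung arrays lay between 2.11 and 3.98 and its PBS lung arrays between -0.50 and 0.89. It was called higher, by 2.73 ± 0.38 (SE; 6.64-fold; limma, adjusted p = 0.00998), and was the only one of the 4 other genes of the receptor axis called in that contrast. The receptor itself, Cxcr3, averaged 0.43 ± 0.61 on OVA and -0.69 ± 0.63 on PBS lung arrays, which overlapped, and its difference of 1.12 ± 0.38 was not called (adjusted p = 0.181). Pf4, a platelet chemokine that binds a form of the receptor, differed by 0.13 ± 0.35. Dpp4, the peptidase that trims and weakens the ligands, differed by -0.58 ± 0.23 (adjusted p = 0.249).

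In perfusate, OVA against PBS called none of these 4 genes and 40 of 16873 probes (0.237%; 1545 at an unadjusted p under 0.05). Cxcl11 differed by -0.03 ± 0.21 and Cxcr3 by 0.66. In IL-13 perfusate, where Cxcl9 and Cxcl10 differed from PBS by less than 0, Cxcl11 differed by more than 0. Its differences were 0.43 in Stat6+/-, 0.57 in Stat6-/- and 0.69 in Epi+ arrays, none of them called. Over the perfusate arrays Cxcl11 correlated at a Pearson r of -0.53 with Cxcl9 and -0.59 with Cxcl10. Dpp4 was called lower than PBS in IL-13 perfusate, by -1.43 ± 0.32 in Stat6+/-, -1.45 ± 0.32 in Stat6-/- and -1.74 ± 0.32 in Epi+ arrays (adjusted p = 0.0108, 0.044 and 0.00641), in contrasts that share the PBS arrays and called 7.13%, 0.599% and 2.83% of all probes. The Stat6-/- call was kept without Stat6-/- replicate 12 or PBS replicate 25 and lost without any 1 of the other 8 arrays. The Stat6+/- call was lost without preparation 1.3 (adjusted p = 0.0574), and all 3 calls were lost in fits of only the groups compared. None of the 4 genes was called in a genotype contrast of either tissue.

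Among the other targets and parts of the interferon-gamma pathway, 4 of 32 measured genes were called higher in OVA lung and none lower. These were the interferon-inducible GTPases Iigp1 (1.65 ± 0.28, SE), Tgtp1 (1.59 ± 0.27) and Gbp3 (1.47 ± 0.31) and the peptide transporter subunit Tap1 (1.52 ± 0.33), with adjusted p from 0.0173 to 0.0482. The calls of Iigp1 and Tgtp1 were lost without PBS replicate 2 or 5, that of Gbp3 was kept only without OVA replicate 5 or 6, and that of Tap1 was lost without any 1 of the 10 arrays. The median difference of the list was 0.48, with 30 of 32 above 0, beside a median of 0.03 over all probes. The cytokine itself, Ifng, stood at -0.27 to 0.88 on OVA and -0.03 to 0.53 on PBS arrays (difference 0.24 ± 0.27, adjusted p = 0.707), and the transcription factor Irf1 differed by 0.14 ± 0.33. Socs1, an inhibitor of the pathway, differed by 1.90 ± 0.51 (adjusted p = 0.091).

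Of 27 measured type I interferon targets, only Mx1, an antiviral GTPase, was called higher in OVA lung (1.21 ± 0.26, adjusted p = 0.0424), with a list median of 0.71, and this call was kept only without OVA replicate 4. Of 19 genes of NF-kappaB and inflammatory cytokines, Il6 (1.79 ± 0.30) and Tnf (1.72 ± 0.31) were called higher. Both calls were lost without any 1 of OVA replicate 1 and PBS replicates 2, 4 and 5. In OVA perfusate none of 31, 27 and 19 genes of these lists was called, with medians of 0.11, 0.05 and -0.11.

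A few interferon targets were called higher in IL-13 perfusate, where the differences of Cxcl9 and Cxcl10 from PBS lay below 0. Of all probes 7.13% were called against PBS in Stat6+/-, 2.83% in Epi+ and 0.599% in Stat6-/- perfusate. The counts below stand beside these shares and are not read as a trait of the lists. The interferon-gamma list mean had a median of -0.28 on Stat6+/- and -0.19 on PBS arrays. That of the type I list was 0.05 and -0.04. Against PBS, Mx1 (0.77 ± 0.15), Ifitm3, a membrane protein that blocks virus entry (0.78 ± 0.19), and Oasl1, of the oligoadenylate synthetase family (0.59 ± 0.13), were called higher in Stat6+/- perfusate, 3 of 27 type I targets. All 3 kept their calls in the 10 fits without 1 array, and Oasl1 and Ifitm3 lost them without centring, and also when the other groups were left out of the fit. Of the 31 interferon-gamma genes Tgtp1 was called higher (1.19 ± 0.30) and Gbp4 lower (-1.16 ± 0.34). The call of Tgtp1 was lost without any 1 of Stat6+/- replicates 5 and 8 and PBS replicates 22 and 23, and that of Gbp4 was kept only without Stat6+/- replicate 8 or PBS replicate 26. T and NK cell markers moved with them, 4 of 25 called higher and 1 lower, and their part in the result was not tested. Cd3d (1.71 ± 0.41), Cd3g (2.15 ± 0.62) and Cd8b1 (1.92 ± 0.50), parts of the T-cell receptor complex and its co-receptor, and Gzma (0.97 ± 0.27) were called higher. Gzmb, another granule protease, was called lower (-0.94 ± 0.20) and kept its call in all 10 fits without 1 array. The call of Cd3d was lost without Stat6+/- replicate 6 or PBS replicate 24. That of Gzma was kept only without Stat6+/- replicate 5 or PBS replicate 24 or 26. That of Cd3g was kept only without Stat6+/- replicate 5 or 8 or PBS replicate 22, and that of Cd8b1 only without Stat6+/- replicate 7 or 8 or PBS replicate 25 or 26. In Epi+ perfusate 3 type I targets, Mx1 (0.59 ± 0.15), Oasl1 (0.48 ± 0.13) and the deconjugating enzyme Usp18 (0.87 ± 0.21), and of the interferon-gamma genes Tgtp1 (1.14 ± 0.30), were called higher than in PBS. The call of Oasl1 was lost without any 1 of the 10 arrays. That of Tgtp1 was kept only without PBS replicate 25, that of Mx1 only without Epi+ replicate 20 or PBS replicate 26, and that of Usp18 only without Epi+ replicate 16 or 20 or PBS replicate 25. In Stat6-/- perfusate no gene of the interferon lists was called.

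**Figure D3:**
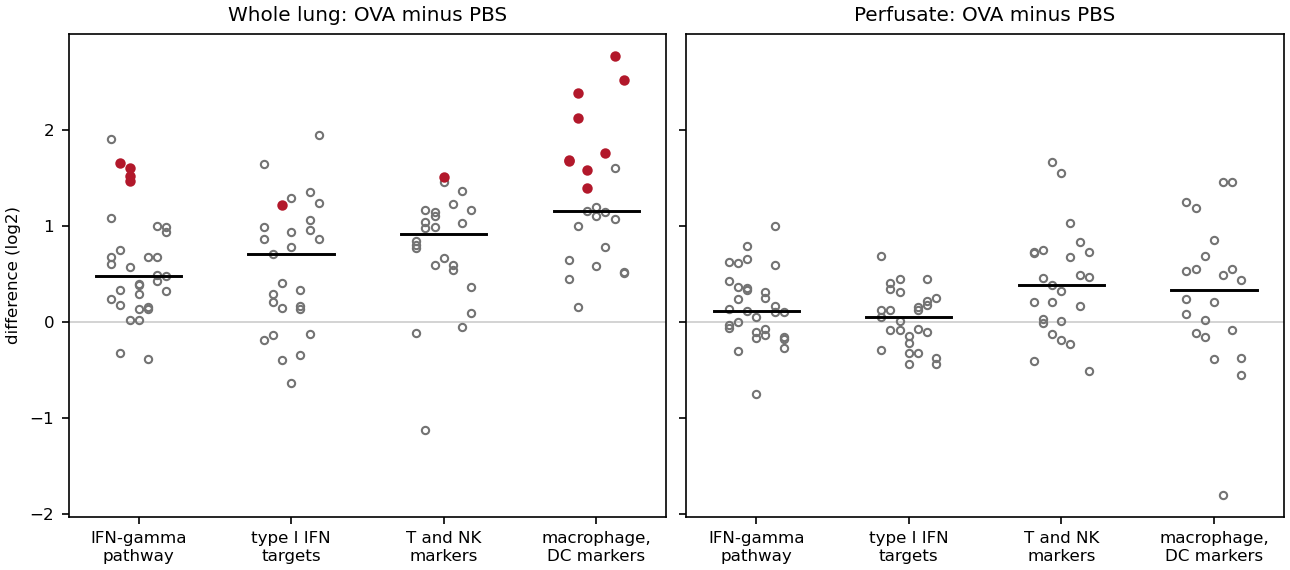
Difference between OVA and PBS on the log2 scale (vertical axis) of each measured gene of 4 lists, in whole lung (left) and perfusate (right); filled points were called higher, open points were not called and black bars are list medians. In whole lung the medians are 0.48, 0.71, 0.91 and 1.15, and in perfusate no gene of these lists was called.

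Chemokines that bind other receptors were also higher in OVA lung, 8 of 25 called and none lower, with a median of 1.22. They included the monocyte attractants Ccl8 (4.55 ± 0.34, 23.5-fold, adjusted p = 0.000502) and Ccl2 (3.00 ± 0.48), Ccl4 (3.09 ± 0.50) and the Ccr4 ligand Ccl22 (2.11 ± 0.27). Cxcl9, at 3.38, was within the range of the chemokines named here. Cxcl10, at 1.73, lay below them and above the list median. The call of Ccl2 was lost without PBS replicate 2.

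The same chemokines were read in the genotype contrast of IL-13 lung. There 10 of the 25 other chemokines were called higher in Stat6+/- than in Stat6-/- lung and 1 lower, with a median of 1.35. Ccl3, an inflammatory chemokine, was higher by 4.30 ± 0.87, Ccl2 by 4.04 ± 0.46, Ccl6, a macrophage chemokine, by 11.3-fold (adjusted p = 3.32e-06) and the neutrophil attractant Cxcl1 by 3.42 ± 0.43. The call of Ccl3 was lost without Stat6-/- replicate 6. Cxcl9 (0.42 ± 1.01), Cxcl10 (0.78 ± 0.35) and Cxcl11 (-1.49 ± 0.81, adjusted p = 0.349) were not called. The intervals of Cxcl9 and Cxcl10 ended at 2.72 and 1.55, below the fitted values of these 4 chemokines. Those 4, however, had the largest differences among the called chemokines, and both intervals held the list median of 1.35. The difference between the chemokines themselves was not tested. In this contrast 779 of 16096 probes were called, 464 to 503 without any 1 of Stat6-/- replicates 1, 2, 4 and 6 or Stat6+/- replicate 3, and 230 without the Stat6-/- arrays with low Y-linked signal.

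**Figure D4:**
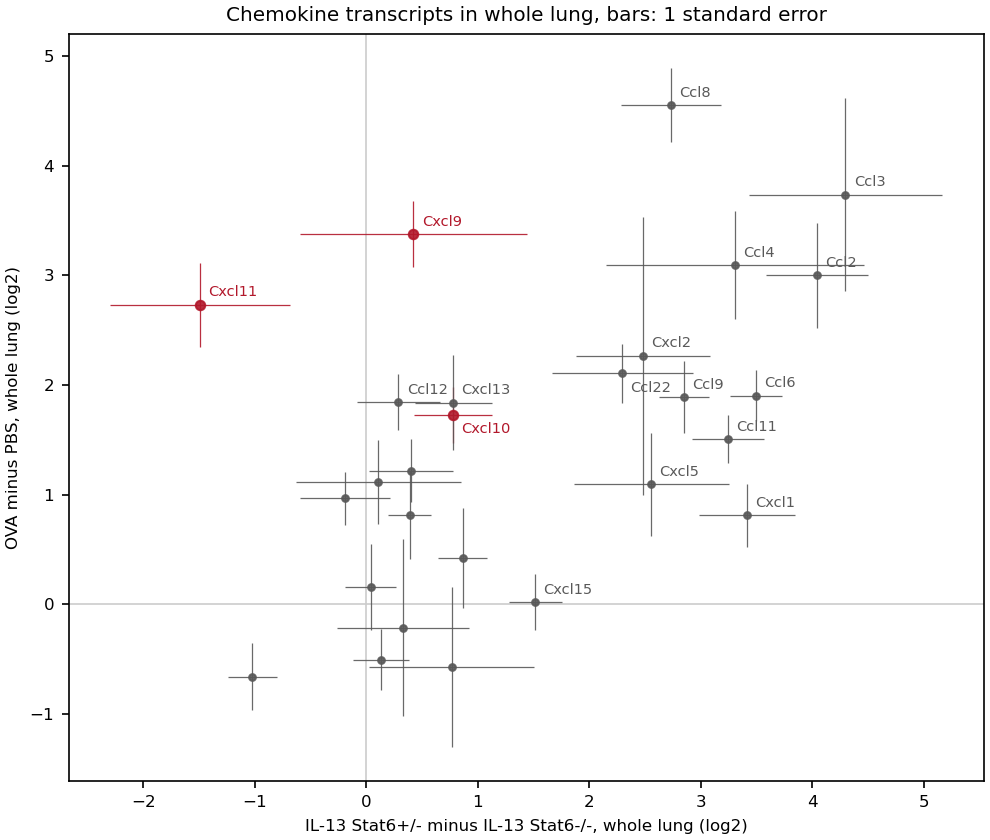
Differences on the log2 scale of chemokine transcripts in whole lung, Stat6+/- minus Stat6-/- in IL-13 animals (horizontal axis) against OVA minus PBS (vertical axis); points are genes, bars 1 standard error, and Cxcr3 ligands are red. The Cxcr3 ligands lie at -1.49 to 0.78 on the horizontal axis and at 1.73 to 3.38 on the vertical axis, while Ccl2, Ccl3, Ccl4 and Ccl8 lie above 2.7 on both.

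Macrophage and dendritic cell markers moved with the chemokines in OVA lung. Few lymphocyte markers were called, although the means of their lists were higher on the OVA arrays too. The part of these cells in the result was not tested. Of 23 macrophage and dendritic cell markers 9 were called higher and all 23 differences were above 0, with a median of 1.15. They were led by C1qb (2.77 ± 0.41), C1qc (2.51 ± 0.35), Msr1 (2.38 ± 0.44) and Adgre1 (2.12 ± 0.36), of which the call of Adgre1 was lost without OVA replicate 1 or PBS replicate 4 and that of Msr1 without any 1 of OVA replicates 4 and 5 and PBS replicates 2 to 5. The count was 4 or 5 without any 1 of OVA replicate 1 and PBS replicates 2, 4 and 5. The mean of the list lay between 1.24 and 1.58 on the OVA and between -0.14 and 0.44 on the PBS arrays. Of 24 T and NK cell markers only Gzma, a granule protease, was called (1.50 ± 0.27; lost without any 1 of OVA replicates 1 and 2 and PBS replicates 1, 2, 3 and 5), with a median of 0.91 and list means of -0.13 to 0.56 against -0.74 to -0.07. Of 11 B and plasma cell markers Pou2af1 (3.10 ± 0.62) and Ms4a1 (2.02 ± 0.36) were called higher. The mean of this list lay between 0.17 and 1.19 on the OVA arrays (median 1.04). On the PBS arrays it lay between -1.10 and 0.16 (median -0.62). Each of the calls of Pou2af1 and Ms4a1 was lost without OVA replicate 1 or 2 or without any 1 of PBS replicates 2 to 5, and that of Pou2af1 also without OVA replicate 5.

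In IL-13 lung the macrophage markers were higher in Stat6+/- than in Stat6-/- arrays, while Cxcl9 and Cxcl10 were not called. Of 21 measured markers 11 were called higher, among them Itgax (3.16 ± 0.27), Cd68 (3.12 ± 0.32), Siglec1 (2.34 ± 0.41) and Fcgr3 (2.30 ± 0.30). The list mean lay between 0.84 and 2.11 on the Stat6+/- and between -0.20 and 0.23 on the Stat6-/- arrays. No T or NK cell marker was called higher, and Gzmb (-2.58 ± 0.63) and Gata3 (-1.32 ± 0.21) were called lower. The call of Gzmb was lost without any 1 of the 5 Stat6-/- arrays or of Stat6+/- replicates 3 and 6. Between Stat6+/- and Stat6-/- lung 4.84% of all probes were called, 3.23% higher. The interferon counts that follow stand beside these shares and are not read as a trait of the lists. Of the interferon-gamma genes 2 of 31 were called higher in Stat6+/- than in Stat6-/- lung, Cd274, an inhibitory ligand of T cells (1.58 ± 0.32), and Tgtp1 (1.08 ± 0.28). Of 27 type I targets Ifi204 (1.22 ± 0.25) was called higher and Ifit2 (-1.20 ± 0.25) lower. Cd274 and Ifit2 kept their calls without any 1 array. Ifi204 lost its call without Stat6-/- replicate 4, Tgtp1 kept its call only without Stat6+/- replicate 1, and all 4 lost theirs without the Stat6-/- arrays with low Y-linked signal. Against Epi+ lung, where 3.42% of all probes were called, Cd274 (1.89 ± 0.33), Ifi204 (1.52 ± 0.27) and Tgtp1 (1.24 ± 0.29) were called higher. The last of these calls was kept only without Epi+ replicate 4 or Stat6+/- replicate 1, 5 or 6. In Epi+ against Stat6-/- lung no chemokine, interferon, macrophage or lymphocyte gene of the lists was called.

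On the chromosome Cxcl9, Cxcl10 and Cxcl11 lie beside each other, with Art3, a gene of the ADP-ribosyltransferase family, between Cxcl9 and Cxcl10. Of 7 other neighbours tested, none was called in OVA lung, with differences from -0.52 (Uso1) to 0.81 (Art3). Art3 stood at 0.81 ± 0.83 (adjusted p = 0.671), and Sdad1 and Nup54, which flank the cluster, at 0.65 ± 0.26 and 0.49 ± 0.31. In Stat6+/- against Stat6-/- lung 1 of the 7 was called, Uso1, higher by 0.84 ± 0.21 (limma, adjusted p = 0.0372). In that contrast 4.84% of all probes were called, and nothing is read from this count.

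The values of the 2 chemokines correlated at a Pearson r of 0.43 over the 25 perfusate arrays, which share 5 references, and of -0.30 over 10 IL-13 lung arrays. The 6 named genes most like Cxcl10 over the perfusate arrays were Sf3a1, a splicing factor subunit (r = 0.91), Ppp1r7, a regulator of protein phosphatase 1 (0.86), the kinase Mtor (0.83), Wdr13 (0.83), the exosome nuclease Exosc10 (0.83) and Emsy (0.82). Those most like Cxcl9 were the aldehyde dehydrogenase Aldh7a1 (0.80), 2610507I01Rik (0.78), the potassium channel subunit Kcnj8 (0.77), the scavenger receptor Colec12 (0.75), the zinc transporter Slc30a5 (0.75) and the mitotic kinase Plk1 (0.75). None of these genes belongs to the interferon or chemokine lists. With group and reference means removed, r was 0.72 to 0.88 for the genes like Cxcl10 and 0.61 to 0.77 for those like Cxcl9. Over the lung OVA and PBS arrays, which fall into 2 groups, it was -0.56 to 0.21 for the genes like Cxcl10 and -0.49 (Aldh7a1) to 0.90 (Plk1) for those like Cxcl9. These are the highest of many correlations over arrays that share references, and are given as a description.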

How the data were processed

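RNA of 50 samples was measured on 2-colour spotted arrays. The authors deposited log2 ratios per spot. How they were scanned, filtered or normalized is not stated in the labels, and without intensities dim spots could not be removed. The deposited array medians ran from -0.96 to 0.30. The design had assumed normalized values, and each array was centred on its median, with the deposited values as an alternative. Arrays held 15693 to 18655 spots with a value. Their number limits the precision. Spots of 1 transcript were averaged. Gene symbols are those of the platform annotation, brought up to date by Entrez identifier with RefSeq for GRCm38.p6, and each listed gene was read from its probe with most values.

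Linear models were fitted with limma 3.58.1 (R 4.3.3) to 25 perfusate arrays (reference preparation as a block), 15 IL-13 lung arrays (reference pool as a block), 10 OVA and PBS lung arrays, and 40 arrays for the tissue difference. Probes needed 3 values in every group. P-values were adjusted by Benjamini-Hochberg over all probes and called at 0.05. The scripts were checked on simulated data. Figures used Python 3.11.15 and matplotlib 3.10.9.

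The members, gene lists and tests were chosen with earlier results of these data known. Named were both chemokines, every gene of the receptor axis, up to 4 called genes with the largest difference of each other list, and the 6 genes most like each chemokine. Ifng, Irf1, Socs1, Gzmb in perfusate, the endothelial and collagen genes and the chromosomal neighbours were chosen after their values were seen. Alternatives were no centring, quantile normalization, scaling, array weights, other minimums of values, other blocks, fits of fewer groups, and leaving out each array, preparation 1.3 or the arrays with low Y-linked signal. Whether replicate numbers pair the samples is not stated. Of 16 pairs with the same number in whole lung, 7 correlated above 0.1 in their deviations from the group means (median r 0.05). In IL-13 lung, pairs that shared a reference pool lay above 0 and the others below 0, so pairing could not be judged there. In OVA and PBS lung, which share a pool, the pairs lay between -0.18 and 0.01.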

Additional observations from a re-analysis of the deposited data

Results flagged for a closer look

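Of 18 groups of 4 or 5 arrays examined for either chemokine, 1 held an array that stood far from the others. This was Cxcl9 in OVA perfusate, where replicate 31 was at 1.29 and the other arrays between -0.54 and -0.14. Its gap to the nearest array was 0.784 of the range of the group. Chance gives about 1 such group in 20. Cxcl10 on that array was at -0.43, within the range of its group.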

How the results depend on the processing

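Of 514 refits of 26 results on Cxcl9 and Cxcl10, 510 kept their side of the threshold or moved by less than the spread between arrays. In OVA against PBS lung, Cxcl9 was 2.81 after quantile normalization and 2.68 with arrays scaled to equal spread, beside 3.38. Leaving out single arrays, Cxcl10 in Stat6+/- against Epi+ lung ran from 0.48 to 1.67 and its tissue difference from -1.11 to -0.43. The cause was not tested. With replicate number as a block in whole lung, OVA against PBS was 3.38 for Cxcl9 and 1.73 for Cxcl10, but limma called 0 of 16775 probes (2148 at an unadjusted p under 0.05), Cxcl11 included (adjusted p = 0.164), and 95 in Stat6+/- against Stat6-/- lung. Whether the numbers pair the samples is not stated, and in IL-13 lung it could not be judged. Without centring, 36 probes were called in OVA against PBS lung, where 299 were with it, and 284, where 779 were, in Stat6+/- against Stat6-/- lung. With array weights OVA against PBS lung gave 796. Other counts ran, over all alternatives, from 0 to 66 (OVA), 4 to 2299 (Stat6+/-), 0 to 540 (Stat6-/-) and 0 to 1305 (Epi+) against PBS in perfusate, where the counts of 0 came from fits of only the 2 groups compared (1779, 2010 and 2787 at an unadjusted p under 0.05). For Stat6+/- against Stat6-/-, Epi+ against Stat6-/- and Stat6+/- against Epi+ they ran from 69 to 989, 1 to 170 and 0 to 261 in perfusate, and for the last 2 from 4 to 15 and 61 to 825 in lung. The tissue difference ran from 228 to 935. With 5 arrays a group and up to 2 without a value, smaller differences in IL-13 lung could not be seen.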

Other observations

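Goblet cell genes were higher on the OVA perfusate arrays, where Cxcl9 and Cxcl10 overlapped the PBS arrays. Clca1, a secreted product of goblet cells, was higher than in PBS perfusate by 3.39 ± 0.31 (SE; 10.5-fold; limma, adjusted p = 1.98e-05) and the gel-forming mucin Muc5ac by 2.81 ± 0.32 (7.02-fold). They were the 2 genes called among 18 epithelial markers. In OVA lung the same genes were higher by 6.13 ± 0.47 and 4.00 ± 0.57. In IL-13 perfusate of Stat6+/- animals they were higher than in PBS by 2.85 ± 0.31 and 2.62 ± 0.32.

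None of 14 markers of endothelium and fibroblasts was called in OVA lung (limma), with a median difference of -0.73. Endothelial members such as Cldn5 (-1.15 ± 0.38) and Eng (-1.07 ± 0.24) had differences below 0, while the collagen genes Col3a1 (1.43 ± 0.41), Col1a1 (0.29 ± 0.27) and Col1a2 (0.18 ± 0.21) had differences above 0. The other fibroblast members did not share this rise. Dcn averaged -0.75 on OVA and -0.08 on PBS arrays, Pdgfra -0.16 and 0.34, Pdgfrb -1.07 and -0.81, and Lum -0.56 and -0.61. Of 15 granulocyte and mast cell markers none was called, with a median of 0.44.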
